A study of Homo sapiens with 28 samples.

Results

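The effect of RNA handling was examined in libraries that contained no 4-thiouridine (s4U), so that differences between handlings could be read without any labelled RNA. The 6 libraries were selected by their labels out of 28 samples in the series: 3 unlabelled libraries made with drop-out handling (DO) and 3 made with improved handling (IH), with 1 of each for every conversion chemistry. Reads aligned with HISAT-3N were summed per gene, separately for reads flagged exonic and reads flagged intronic, and IH was compared with DO within each chemistry. The remaining 12 libraries of the same count table were labelled with 100 µM s4U for 2 h and served only for contrast and for describing genes, and 10 samples of other chemistries were not analysed here.

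All libraries came from wild-type HEK293T, an established cell line of human embryonic kidney origin. The chemistries were sodium periodate with trifluoroethylamine at pH 5.2 (TL), iodoacetamide (SLAM) and osmium tetroxide with ammonia (TUC), and every unlabelled library went through its chemistry although it held no s4U. RNA was extracted with Trizol, treated with DNase, cleaned on beads and made into stranded libraries with a low-input kit for total RNA, whose standard protocol includes depletion of ribosomal cDNA. The series describes IH as collection and processing meant to limit the loss of s4U-labelled RNA and of reads with T-to-C mismatches, and DO stands for the commonly used protocol; the individual steps that differed are not given in the sources used here. Each chemistry had 1 unlabelled library per handling, so the 3 chemistries serve as the replicates. The gene tests combine the spread of a gene between these 3 pairs with a spread estimated over all genes tested. Their p-values and SE can therefore be much smaller than the 3 pairs of 1 gene alone would give. The gene identifiers of the table are not paired with symbols here, so the line's marker genes were not checked and genes are given by identifier.

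In nucleotide-recoding sequencing, cells build s4U into new RNA, and a chemical step on the isolated RNA makes those positions read as C. Unlabelled libraries normally set the background of T-to-C mismatches and are treated as the total RNA of the same cells. Total RNA is dominated by ribosomal RNA, transcribed from repeated units, while introns are found mainly in nuclear precursors that turn over quickly. Introns and the genes of gene-poor chromosomes are rich in A and T, and ribosomal RNA and the genes of gene-dense chromosomes are rich in G and C.

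Depth differed between the handlings. The DO libraries held 3064410 (TL), 2640272 (SLAM) and 1935777 (TUC) aligned reads, and the IH libraries 9962345, 3183772 and 4243992 in the same order. For a share of all reads, the 95% Wilson interval reached no further than 0.0683 percentage points from the value, which covers counting error only, because reads without molecular identifiers are not independent molecules. The spread between chemistries was larger than this counting error. With 3 pairs, the exact permutation test within chemistry has 8 arrangements and cannot give a two-sided p below 0.25, so none of the comparisons of shares can pass 0.05. Shares are parts of a total, so less RNA of one class and more of the others cannot be told apart.

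Ribosomal reads were a much smaller part of the IH libraries. Here 3 contigs of the table were counted as ribosomal DNA contigs: chromosome 21, KI270733.1 and GL000220.1. The RefSeq gene list places 12 ribosomal RNA genes on chromosome 21, 4 on chromosome 22 and 4 on an unknown chromosome. It was not checked on which contig those given to chromosome 22 lie. The main contig of chromosome 22 was counted with the other nuclear chromosomes. These contigs took 30.8% (TL), 42.7% (SLAM) and 37.8% (TUC) of the reads under DO, and 7.64%, 10.2% and 9.89% under IH. Every DO library lay above every IH library. The DO libraries averaged 37.1% ± 5.98 and the IH libraries 9.23% ± 1.38 (SD, n = 3 each), a difference of -27.9 percentage points ± 4.68 (SD of 3 pairs; two-sided p = 0.25 by exact permutation). The size depended on the aligner, with a difference of -17.1 points for HISAT2 and -12.3 points for STAR. The contigs differed alike: KI270733.1 held 15.7% ± 3.67 under DO and 3.73% ± 1.03 under IH, GL000220.1 5.21% ± 0.60 and 1.10% ± 0.35, and chromosome 21 16.2% ± 1.86 and 4.40% ± 0.08 (SD, n = 3 each).

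Most of these reads carried labels that hide their origin. All reads on KI270733.1 and GL000220.1 named no gene. On chromosome 21, reads flagged intronic made up 12.6% ± 1.65 of a DO library and 3.18% ± 0.06 of an IH library (SD, n = 3), and 2 genes out of 338 with such reads held 89.3% to 99.5% of them. These 2 identifiers, ENSG00000280441 and ENSG00000278996, were picked out for this share. Exonic reads on chromosome 21 went the other way, with 0.281% ± 0.036 for DO and 0.386% ± 0.024 for IH. The whole of chromosome 21, including its protein-coding genes, is counted with the ribosomal contigs in the read classes and nuclear read shares that follow. The tests of single genes include the genes of chromosome 21 unless stated otherwise.

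**Figure D1:**
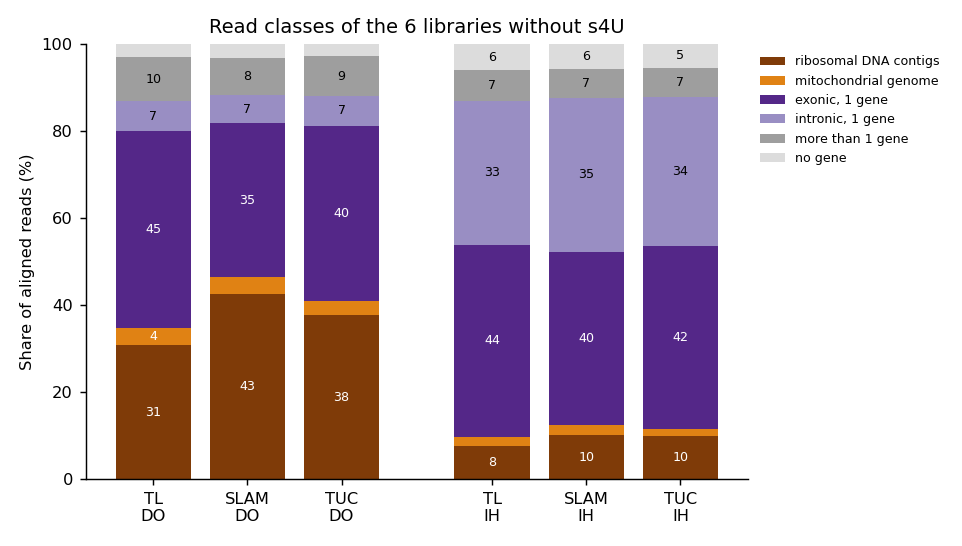
Stacked bars give the share of aligned reads (%) in 6 read classes for each unlabelled library, DO on the left and IH on the right. Ribosomal DNA contigs fill 30.8% to 42.7% of the DO libraries and 7.64% to 10.2% of the IH libraries, and intronic reads of 1 gene show the opposite change.

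Intronic reads of nuclear genes showed a difference of similar size in the opposite direction. Outside the ribosomal and mitochondrial contigs, reads flagged intronic and assigned to 1 gene made up 6.90% (TL), 6.60% (SLAM) and 6.91% (TUC) of the DO libraries. Under IH the shares were 33.0%, 35.3% and 34.2%. The groups stood far apart and were tight within themselves: 6.80% ± 0.18 against 34.2% ± 1.15 (SD, n = 3), a 5.02-fold ratio and a difference of 27.4 points ± 1.31 (SD of 3 pairs; p = 0.25 by exact permutation). The intronic share over all contigs, which includes the flagged reads of chromosome 21, showed a smaller difference, 24.1% ± 1.53 against 40.6% ± 1.17 (16.6 points ± 0.52). That difference was 22.3 points with HISAT2, 28.7 with STAR and 26.8 without the ribosomal contigs.

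Exonic reads of 1 nuclear gene were the only class whose pairs differed in direction. They made up 45.1%, 35.2% and 40.2% of the DO libraries and 44.2%, 39.7% and 41.9% of the IH libraries in the order TL, SLAM and TUC. The TL pair was lower under IH and the other pairs higher, with a mean difference of 1.72 points ± 2.68 (SD of 3 pairs; exact permutation test, p = 0.5). Reads that named no gene outside the ribosomal and mitochondrial contigs, which include intergenic RNA, were 3.05% ± 0.17 under DO and 5.73% ± 0.30 under IH. Reads that fitted more than 1 gene were 9.15% ± 0.78 and 6.86% ± 0.22. Neither of these classes overlapped between the handlings.

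Reads of the mitochondrial genome, which encodes respiratory chain subunits and the ribosomal RNAs of the organelle, made up 4.09%, 3.83% and 3.14% of the DO libraries. Under IH they were 2.06%, 2.42% and 1.73% (TL, SLAM, TUC). The mean difference was -1.62 points ± 0.36 (SD of 3 pairs), and the IH mean was 0.56 of the DO mean. The difference was -2.83 points with HISAT2, -3.02 with STAR, -2.98 over reads of 1 gene and -3.60 without the ribosomal contigs. All 16 mitochondrial genes tested for exonic counts fell, with a median log2 change of -1.43 (-0.92 when scaled to total exonic reads, and -0.49 over 15 genes with at least 20 reads in each library), where 36.6% of all genes tested fell.

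The handling differences without s4U were compared with those in labelled RNA. For each of 11 shares and rates, the handling difference of the unlabelled pairs was set against that of the labelled libraries, with an exact permutation of which library of each chemistry and handling was the unlabelled one (729 arrangements, two-sided). The T-to-C measures went opposite ways: reads with a mismatch differed by 27.1 points with s4U and -1.31 without (exact permutation test, p = 0.15, adjusted p = 0.42), and mismatches per 1000 T by 29.6 and -1.37 (p = 0.11, adjusted p = 0.40). For these measures the test cannot decide, because s4U itself raises them. Exchanging labelled and unlabelled libraries puts that effect into the arrangements and widens them. The ribosomal contigs differed by -26.3 points between handlings in the labelled libraries, against -27.9 without s4U (exact permutation test, p = 0.80). Nuclear intronic reads differed by 25.6 points with s4U and 27.4 without (exact permutation test, p = 0.44). The mitochondrial share gave the smallest p: the handling difference was -0.72 points with s4U and -1.62 without (exact permutation test, p = 0.014, adjusted over the 11 measures p = 0.15). Across the single libraries, mitochondrial reads ranged from 2.72% to 3.83% in labelled DO and from 1.92% to 3.10% in labelled IH libraries. These groups of 6 libraries overlapped, and the unlabelled groups of 3 did not. The ranges pool the chemistries, and ranges over more libraries overlap more easily, so they do not compare the labels.

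The number of T positions in a read was compared next, because conversion can be seen only at T. A DO read held 28.4 (TL), 25.5 (SLAM) and 27.4 (TUC) T positions on average, and an IH read 39.1, 36.8 and 38.4. The difference was 11.0 ± 0.29 T positions per read (SD of 3 pairs; p = 0.25 by exact permutation), with no overlap between the groups. The low end of the distribution shrank under IH: reads with fewer than 10 T positions were 6.89% ± 1.99 under DO and 1.88% ± 0.81 under IH, and those with 10 to 19 were 25.6% ± 2.67 and 10.3% ± 0.89. The high end grew: reads with 60 or more T positions were 1.31% ± 0.18 and 9.85% ± 1.19, a 7.50-fold ratio.

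Part of this difference was the mix of classes and part lay inside them. Reads on the ribosomal contigs held 18.1 ± 0.76 T positions under DO and 20.4 ± 1.82 under IH, fewer than any other class. Intronic reads of 1 nuclear gene held 35.1 ± 0.90 and 44.4 ± 1.43, the largest difference within a class (9.30 ± 0.89). Exonic reads of 1 nuclear gene went from 31.7 ± 0.86 to 36.6 ± 0.74 and mitochondrial reads from 35.0 ± 1.14 to 37.1 ± 1.43 (SD, n = 3 throughout). Splitting each pair's difference over the 6 classes assigned 5.73 of the 11.0 T positions to the changed mix of classes and 5.22 to changes within classes. The mix accounted for 44.4% (TL), 57.8% (SLAM) and 54.5% (TUC) of the difference.

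**Figure D2:**
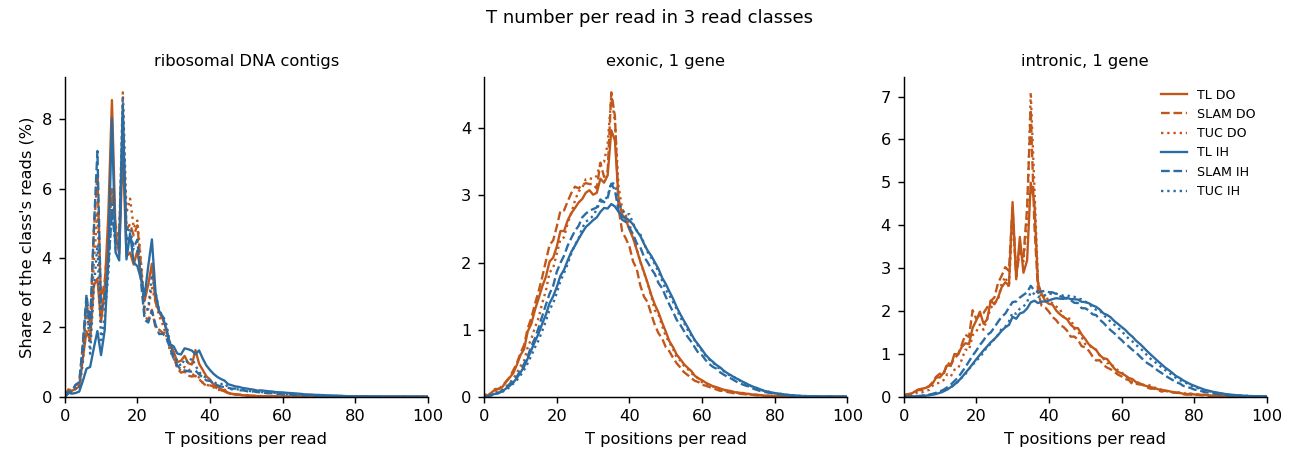
Lines show, for each of the 6 unlabelled libraries, the share of a class's reads (%) at every number of T positions per read, for ribosomal DNA contigs, exonic reads and intronic reads of 1 nuclear gene. IH lines (blue) lie to the right of DO lines (orange) in exonic and intronic reads, and the DO lines carry a narrow peak between 34 and 36 T positions.

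The peak stood out from the IH libraries mainly through reads of chromosome 14. Reads with 34 to 36 T positions made up 14.6% ± 1.75 of nuclear intronic reads under DO and 7.02% ± 0.50 under IH. Chromosome 14 alone gave 7.30% ± 1.73 of them under DO and 0.577% ± 0.125 under IH, and the other chromosomes together 7.35% ± 0.24 and 6.44% ± 0.47 (SD, n = 3). Among nuclear exonic reads the same T numbers made up 11.8% ± 0.66 under DO and 9.03% ± 0.45 under IH, of which chromosome 14 gave 3.06% ± 0.84 and 0.868% ± 0.337, and the other chromosomes 8.78% ± 0.56 and 8.16% ± 0.13. A single gene of chromosome 14, the one with the most exonic labelled reads there, held 1.48% ± 0.28 of all reads as exonic reads under DO and 0.337% ± 0.164 under IH. Its intronic-flagged reads were 0.801% ± 0.075 and 0.183% ± 0.060 of all reads. The rest of chromosome 14 went the other way, with intronic reads at 0.353% ± 0.022 under DO and 1.19% ± 0.04 under IH. This gene was looked at because of the peak.

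Exonic reads were more concentrated on few genes under DO. The 100 nuclear genes with the most exonic reads in the labelled libraries held 25.5% ± 0.56 of nuclear exonic reads under DO and 15.8% ± 0.12 under IH (SD, n = 3). Without the chromosome 14 gene, the other 99 held 21.7% ± 0.63 and 15.02% ± 0.54. For intronic reads the corresponding 100 genes held 22.1% ± 1.95 and 10.4% ± 0.17, but the chromosome 14 gene alone accounted for 11.8% ± 1.27 and 0.535% ± 0.175 of nuclear intronic reads. The other 99 genes held 10.4% ± 0.90 under DO and 9.84% ± 0.15 under IH, and these ranges overlapped.

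The number of genes seen depended on how depth was matched. When the nuclear exonic reads of every library were thinned at random to the 778737 of the smallest, 9127 (TL), 9209 (SLAM) and 9212 (TUC) genes had at least 5 exonic reads under DO, and 10999, 11203 and 11158 under IH. When nuclear intronic reads were thinned to 133679, the counts were 6165, 6171 and 6148 genes under DO and 6348, 6370 and 6378 under IH. The handlings did not overlap in either, and the gap was small for intronic reads. When only the total of aligned reads was matched, at 1935777, the IH libraries still held more intronic reads, and 6269, 6018 and 6224 genes under DO stood against 11316, 11440 and 11413 under IH.

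At the level of genes, most exonic counts differed between the handlings. Of 21138 genes with any exonic read, 10747 passed the filter on low counts, and edgeR's quasi-likelihood test with chemistry as a block called 8655 of these (80.5%) at an adjusted p below 0.05. It called 4724 genes (44% of those tested) higher in IH and 3931 (36.6%) lower. The changes were large: 4059 genes rose and 3034 fell more than 2-fold, and 978 rose and 26 fell more than 8-fold. The large rises include genes with almost no reads under DO that passed the filter through the IH libraries only. The middle 90% of log2 changes ran from -2.03 to 3.50, with a median of 0.27. In 9418 genes the sign was that of the fit in each of the 3 chemistries.

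Directions are relative to the scaling. With TMM factors, which assume that the typical gene is unchanged, 54.6% of the calls were higher in IH. Scaling to the total of exonic reads alone moved all genes by 0.51 on the log2 scale, and 65.8% of the 8571 calls were then higher. A gene that was missing from DO libraries could pass the filter through the IH libraries only. Under a filter of at least 20 reads in each library, 4731 genes were tested and 3640 called, 1846 higher in IH and 1794 lower. The changes of these genes shifted by 0.90 relative to the fit with all genes, and 221 of the 2956 shared calls changed sign. A shift common to all genes does not alter their order by change, described next.

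The changes were graded by the T number of a gene's reads. For 8020 of the genes tested, the mean number of T positions per exonic read was taken from the labelled libraries only, and the genes were split into 4 groups of 2005. Both handlings were pooled for this number. In the unlabelled libraries, reads of the same gene tended to hold more T positions under IH (median difference 1.05). Part of the grading may come from this pooling, which was not tested. In the lowest group, with up to 31.5 T positions per read, 198 genes rose and 1597 fell, with a median log2 change of -1.38. In the second group 508 rose and 1127 fell (median -0.68), and in the third 1089 rose and 512 fell (median 0.68). In the highest group, above 40.2 T positions, 1655 genes rose and 153 fell, with a median of 1.93. All genes tested gave a median of 0.27, with 44% called higher and 36.6% lower.

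The medians of the single chemistries were close to each other. In the lowest group they were -1.33 (TL), -1.41 (SLAM) and -1.28 (TUC), and in the highest 1.82, 1.88 and 1.93. Across the 8020 genes Spearman's rho between T number and log2 change was 0.65 and Pearson's r 0.62; these are descriptions across genes of the same 6 libraries, since genes are not independent replicates. Under the stricter filter of at least 20 reads in each library, the medians of the groups kept their order, at -0.51, -0.09, 0.68 and 1.51. That filter left 1648, 1441, 1055 and 558 genes, so that far more of the highest group than of the lowest had too few reads in some library. Scaled to total exonic reads they were -0.87, -0.18, 1.18 and 2.44. The number of T positions in a read grows with the A and T content of a gene and with read length, which the table does not give, and these were not separated.

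**Figure D3:**
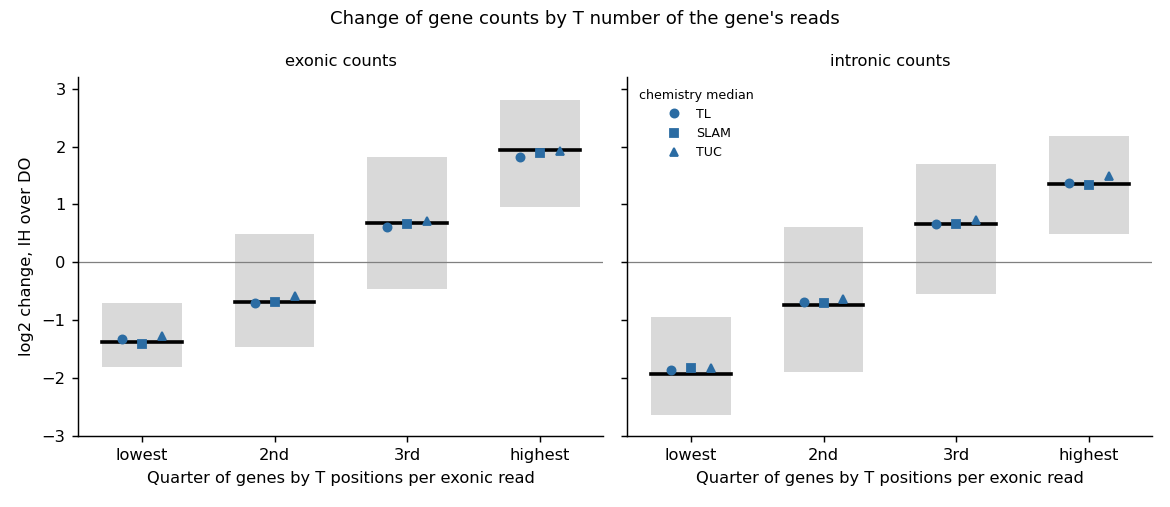
Black bars mark the median log2 change (IH over DO) of genes in each group of T positions per exonic read, grey boxes the middle 50% of the genes and symbols the median in each chemistry, for exonic counts (left) and intronic counts (right). The exonic medians climb from -1.38 to 1.93 and the intronic medians from -1.93 to 1.36, with the 3 chemistries close together in every group.

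Chromosomes also differed. Chromosome 13 had the highest median change of exonic counts (log2 1.69; 147 of 193 genes rose and 12 fell), followed by chromosome 4 (1.56; 279 of 391 rose and 49 fell) and chromosome 18 (1.47; 111 of 163 rose and 15 fell). These are chromosomes with few genes for their size. Chromosome 19, the most gene-dense, had the lowest (-1.42; 118 of 673 rose and 486 fell), followed by chromosome 22 (-0.96; 34 of 266 rose and 167 fell) and chromosome 17 (-0.84; 158 of 644 rose and 367 fell). Chromosomes 16, 20 and 11 also had medians below 0, and the other 17 had medians above 0. All 6 stayed below 0 when scaled to total exonic reads, with chromosome 19 at -0.91 and chromosome 11 at -0.0021. With at least 20 reads in each library the medians lay closer together: chromosome 13 was at 1.35, 18 at 1.22 and 4 at 0.89, and chromosome 19 at -0.68, 11 at -0.36, 22 at -0.20 and 17 at -0.19. Few genes remained on chromosomes 13 (36), 18 (45) and 4 (93). Chromosomes 6 and 9 then had medians just below 0, at -0.03 and -0.07.

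Plain read shares, which need no gene filter, followed the medians for some chromosomes and not for others. Chromosome 19 gave 11.8% ± 0.26 of nuclear exonic reads under DO and 5.66% ± 0.25 under IH. Chromosome 4 gave 1.35% ± 0.04 and 2.99% ± 0.03, a 2.22-fold ratio, and chromosome 13 gave 0.537% ± 0.027 and 1.55% ± 0.06, a 2.88-fold ratio (SD, n = 3). Chromosome 6 had a lower exonic share in IH, 8.23% ± 0.12 against 6.19% ± 0.09, although its median log2 change was 0.67. Chromosome 14 (0.642-fold, median 0.54) and chromosome 12 (0.951-fold, median 0.25) likewise had lower shares and medians above 0. Among intronic reads chromosome 13 differed 3.23-fold, from 0.923% ± 0.041 to 2.98% ± 0.05, and chromosome 19 went from 6.69% ± 0.48 to 2.39% ± 0.06. Chromosome 14 stood apart, with 17.0% ± 1.55 of nuclear intronic reads under DO and 4.02% ± 0.17 under IH, although the median log2 change of its genes was 0.62 for intronic counts. The single gene described above held most of its intronic reads under DO.

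**Figure D4:**
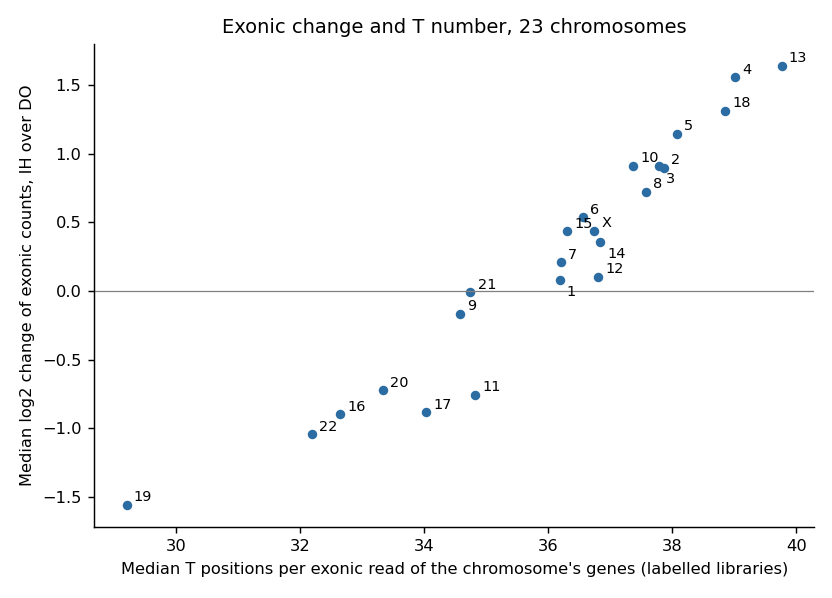
Each point is a chromosome: the median T positions per exonic read of its genes in the labelled libraries (horizontal) against the median log2 change of their exonic counts in the unlabelled pairs (vertical, IH over DO). Chromosome 19 lies at the lower left (29.2 T positions, -1.56 over its genes with a T number, against -1.42 over all its genes tested) and chromosomes 4, 18 and 13 at the upper right.

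Over 22 chromosomes, leaving out chromosome 21, the median log2 change and the median T number of the genes had a Spearman's rho of 0.96 and a Pearson's r of 0.96. With the median span of the chromosome's protein-coding genes in the RefSeq gene list, rho was 0.88 and r 0.87. Both are descriptions over chromosomes that share the same libraries. The grading by T number was present inside chromosomes too: in each of the 23 chromosomes the group of genes with the most T positions had a higher median than the group with the fewest, by 0.50 (chromosome 19) to 3.52 (chromosome 8) on the log2 scale. Genes of the lowest T group over all chromosomes had medians from -1.62 on chromosome 19 (328 genes) to -0.34 on chromosome 13 (12 genes). Chromosome 4 was at -1.02 (28 genes). Genes of the highest group had medians from 0.77 on chromosome 16 (47 genes) to 3.39 on chromosome 19 (15 genes). In that group chromosome 4 was at 2.32 (107 genes), 22 at 1.07 (19 genes) and 20 at 0.85 (33 genes).

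Other properties read from the labelled libraries were graded too, where 44% of all genes tested were called higher and 36.6% lower. The group of genes with the lowest intronic share of their reads (up to 16.6%) had a median exonic log2 change of -1.31, with 425 genes up and 1764 down of 2448. The group with the highest (above 57.5%) had 1.57, with 1702 up and 195 down of 2447. This share was pooled over labelled libraries of both handlings, where nuclear intronic reads were also higher under IH, by 25.6 points. A gene with more reads under IH therefore gets a higher intronic share by construction, and the size of this part was not tested. By level, the group of genes with the most exonic reads had a median of -0.77 (873 up and 1588 down of 2686), and the group with the fewest 0.88 (1258 up and 534 down of 2696). Genes with few reads could pass the filter through the IH libraries only, and the grading by level was not repeated with at least 20 reads in each library. T-to-C mismatches per 1000 T in labelled IH libraries, a measure of how much of a gene's RNA was new, gave medians of -1.07, 0.13, 0.83 and 1.28 from the lowest to the highest group of 4062 genes. These properties go together in the genome, and their parts in the change were not separated.

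The genes with the largest exonic changes were nearly absent from one handling. ENSG00000139324 on chromosome 12 had 2, 1 and 0 exonic reads under DO and 360, 130 and 164 under IH (TL, SLAM, TUC). The ratio of its pooled, scaled reads was 66.4, with a 95% counting interval of 22.6 to 323. The fitted log2 change was 6.02, but 3.89 with HISAT2 and 4.15 with STAR. ENSG00000072571 on chromosome 5 had 3, 0 and 2 reads under DO and 423, 143 and 167 under IH, a pooled ratio of 44.7 (19.1 to 138). Both passed the filter on low counts through the IH libraries only and were chosen for their large rise, so these values are a description.

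The leading falls were in genes well covered under DO. ENSG00000202538 on chromosome 12 had 208, 834 and 277 exonic reads under DO and 47, 113 and 77 under IH, which is 171, 1001 and 382 against 8.84, 71.8 and 34.8 CPM. Its log2 change was -3.81 ± 0.13 (SE; adjusted p = 1.2e-20). ENSG00000270722 on chromosome 1 had 285, 301 and 180 reads under DO and 106, 51 and 65 under IH, with a log2 change of -3.38 ± 0.15 (SE; adjusted p = 2.1e-18). With at least 20 reads in each library the log2 changes were -2.91 for ENSG00000202538 and -2.49 for ENSG00000270722. The SLAM library was the highest of the DO libraries for both.

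Intronic counts were tested in 9875 of 26229 genes with any intronic read, and 6166 (62.4%) were called, 3230 higher in IH (32.7%) and 2936 lower (29.7%). These directions rest on the scaling more than the exonic ones do. The TMM factors of the intronic fit were 0.46 to 0.60 in DO and 1.79 to 1.86 in IH libraries, and scaling to total intronic reads moved all genes by 1.74 on the log2 scale. Of the 7213 genes then called, 90.0% were higher in IH. Without the genes of the ribosomal and mitochondrial contigs 6774 genes were called, with a shift of 0.29.

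Intronic counts were graded by T number as well, less firmly. Median log2 changes were -1.93, -0.74, 0.66 and 1.36 from the lowest to the highest group of 6736 genes, and -0.19, 1.01, 2.40 and 3.11 when scaled to total intronic reads, so that the second group changed sign. It changed sign too with at least 20 reads in each library, where the medians were -0.34, 0.42, 0.44 and 1.11 over 497, 265, 111 and 30 genes. In the lowest group 120 of 1684 genes rose and 1262 fell, and in the highest 947 of 1684 rose and 77 fell. Over all genes tested for intronic counts, 32.7% were called higher and 29.7% lower. By chromosome, 19 had the lowest nuclear median (-1.96; 25 of 489 genes rose and 360 fell) and 13 the highest (1.46; 105 of 196 rose and 14 fell). This order did not hold with at least 20 reads in each library, where few genes remained. Chromosome 8, at 0.97 in the main fit, was then lowest (-0.73, 20 genes), before 19 (-0.54, 100 genes). Chromosome 13 stayed highest (1.51), over 5 genes. With total scaling, chromosome 19 was the only nuclear chromosome that stayed below 0, at -0.22. Chromosomes 11, 16, 17, 20, 21 and 22 were below 0 in the main fit and above 0 with total scaling. Their medians then ran from 0.28 (chromosome 22) to 1.58 (chromosome 21). Chromosome 4 (3.209) was then highest, just before 13 (3.203).

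ENSG00000149212 on chromosome 11 had no intronic read in any DO library and 356 (TL), 115 (SLAM) and 192 (TUC) under IH. Against a floor of 3 counts over the DO group it was at least 15.3-fold higher. ENSG00000196323, also on chromosome 11, had 1, 0 and 0 reads under DO and 487, 186 and 219 under IH, a pooled ratio of 61.8 with a 95% counting interval of 11.1 to 2443. The fitted log2 changes depended on the aligner and on single pairs: that of ENSG00000149212 was 9.87, but 4.23 with HISAT2, and that of ENSG00000196323 was 5.90, but 4.08 with HISAT2, 4.31 with STAR and 9.82 without the TL pair. Both passed the filter through the IH libraries only, and no p is given for them. The largest falls were in ENSG00000199415 and ENSG00000202538 on chromosome 12. The first had 49, 795 and 186 reads flagged intronic under DO and 9, 38 and 19 under IH (149.5, 3186 and 898 against 1.44, 17.1 and 6.62 CPM), and the second 522, 354 and 156 against 219, 49 and 49 (-5.64 ± 0.23, SE; adjusted p = 7.7e-60; -3.90 with at least 20 reads in each library or scaled to total intronic reads). No p is given for the first gene, which had under 20 reads in 2 of the IH libraries and entered the test through its DO reads. By CPM, the TL library was the lowest of the DO libraries for the first gene and the highest for the second.

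Within single genes, intronic reads gained on exonic ones. Over 7195 genes with enough reads of both kinds, the median gene had 19.7% (TL), 21.1% (SLAM) and 20% (TUC) of its reads flagged intronic under DO and 45.3%, 49.4% and 47.4% under IH. The filter was an average over the 6 libraries, so a gene could pass through intronic reads of the IH libraries alone, which favours a higher ratio in IH. Only 958 genes had at least 20 intronic reads in each library. The intron to exon ratio was called different in 4610 genes (64.1%), 4580 of them higher in IH (63.7%) and 30 lower (0.417%), with a median log2 change of 1.63 and a middle range of 0.91 to 2.39. In 5478 genes the ratio was higher under IH in all 3 chemistries, and in 121 lower in all 3. The median changes were 1.59 (TL), 1.68 (SLAM) and 1.60 (TUC). When each kind of read was scaled by its own TMM factors, so that the ratio is relative to the typical gene, 1555 genes were called, 635 higher and 920 lower.

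Without separate scaling, the ratio was higher in IH in every chromosome. Its median per chromosome ran from 1.37 (chromosome 19) to 1.93 (chromosome 20), above 0 in all 23. By T number, the medians of the 4 groups lay between 1.47 and 1.78 and did not follow the order of the groups. The 7 mitochondrial genes in the test had a median of 0.21.

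The 2 leading rises of the ratio were the same genes as for intronic counts. ENSG00000149212 had 0 intronic reads beside 32 exonic reads over the DO libraries, which allows an intronic share of up to 9.38%, and shares of 39.1%, 47.5% and 51.5% under IH. ENSG00000196323 had 3.70%, 0% and 0% under DO and 43.9%, 43.7% and 46.2% under IH; the fitted log2 change of its ratio was 5.84, but 4.21 with STAR and 8.52 without the TL pair. Both are descriptions, for the reason given for their intronic counts. The leading falls were genes whose reads were almost all intronic under DO. ENSG00000161813 on chromosome 12 went from 98.1%, 92.0% and 98.5% to 57.6%, 61.1% and 63.4%, with 7, 22 and 3 exonic reads under DO and 438, 152 and 173 under IH. ENSG00000206560 on chromosome 3 went from 97.7%, 96.5% and 97.7% to 82.7%, 79.0% and 77.6%, with 20, 17 and 10 exonic reads under DO and 437, 155 and 232 under IH, and with STAR alignments the log2 change of its ratio was 1.56, the opposite sign. Both averaged under 20 exonic reads in the DO libraries and met the filter through IH, so these values too are a description.

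Reads of the same gene tended to hold more T positions under IH. Among 2527 genes that had 50 or more exonic reads in every library, the median gene held 32.8, 31.1 and 32.9 T positions per exonic read under DO and 34.2, 32.4 and 33.8 under IH (TL, SLAM, TUC). The median difference was 1.05, against 4.88 ± 0.20 for the mean over all nuclear exonic reads. It was positive in 2233 genes and negative in 294, and higher in all 3 chemistries in 1231. limma called 15 genes (0.594%), all higher in IH, and 576 had an unadjusted p below 0.05. Without the TL pair 1 gene was called, without the SLAM pair 79 and without the TUC pair 189.

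The 2 largest differences were far beyond the typical one. ENSG00000234741 on chromosome 1 held 25.7 (TL), 24.0 (SLAM) and 28.1 (TUC) T positions per exonic read under DO and 41.3, 37.8 and 41.0 under IH (14.1 ± 0.76, SE; adjusted p = 0.0014). ENSG00000205581 on chromosome 21 held 18.9, 18.7 and 17.1 under DO and 29.9, 28.1 and 28.7 under IH (10.7 ± 0.72, SE; adjusted p = 0.0029), and was no longer called without the TL pair (adjusted p = 0.083). The groups did not overlap in either gene.

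The background of T-to-C mismatches was lower under IH when taken over all reads. Mismatches per 1000 T positions were 1.33 (TL), 3.45 (SLAM) and 1.72 (TUC) under DO and 0.739, 0.935 and 0.719 under IH, a mean difference of -1.37 (range over the 3 pairs -2.51 to -0.594; p = 0.25 by exact permutation). The SLAM DO library was the highest by far, and without the SLAM pair the mean difference was -0.80. It was -0.358 with HISAT2, -0.446 with STAR, -0.568 over reads of 1 gene and -0.284 without the ribosomal contigs. Reads with 3 or more mismatches were 0.222% ± 0.194 of the reads under DO and 0.0380% ± 0.0211 under IH, and reads with 1 mismatch 3.56% ± 0.67 and 2.60% ± 0.30 (SD, n = 3).

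The rate was highest in the ribosomal contigs. There the rate was 3.15, 9.09 and 4.52 mismatches per 1000 T under DO and 2.11, 5.08 and 3.79 under IH (TL, SLAM, TUC). In exonic reads of 1 nuclear gene it was 0.856, 1.06 and 0.795 under DO and 0.841, 1.01 and 0.743 under IH. The mean difference was -0.040 ± 0.021 (SD of 3 pairs). All 3 pairs were lower under IH, although the groups overlapped. Mitochondrial reads had 1.14 ± 0.29 and 1.13 ± 0.32. Intronic reads of 1 nuclear gene had 0.683 ± 0.149 under DO and 0.403 ± 0.077 under IH, without overlap. Of the difference of -1.31 points in the share of reads with a mismatch, -1.13 points came from the mix of classes and -0.18 points from changes within them. The part within classes differed in sign between chemistries, with 0.07 (TL), -0.37 (SLAM) and -0.25 (TUC). Counted as reads with at least 1 mismatch, exonic reads were higher under IH in all 3 pairs, 2.79% ± 0.34 against 3.08% ± 0.40, as were mitochondrial reads, 3.85% ± 0.83 against 4.04% ± 0.97, while their reads also held more T positions.

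**Figure D5:**
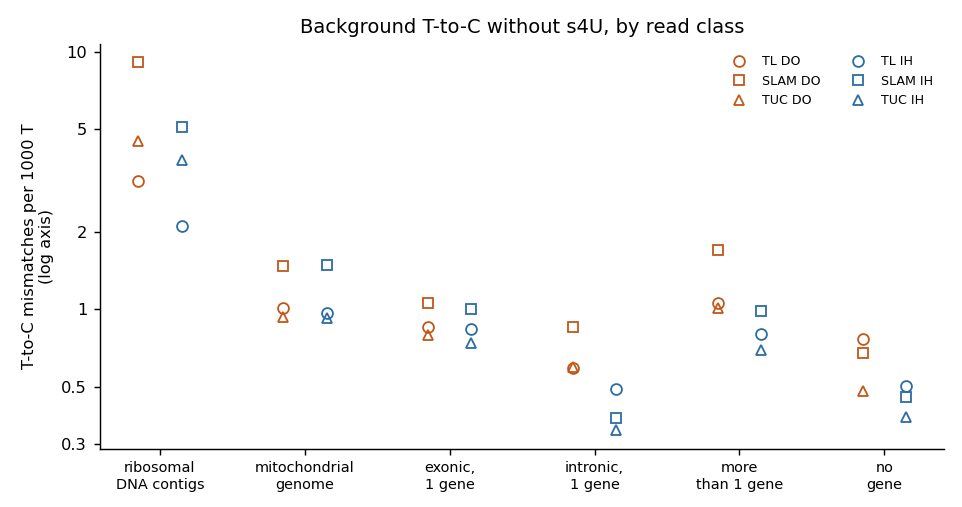
Points show T-to-C mismatches per 1000 T positions (log axis) in each of the 6 unlabelled libraries, by read class, with DO in orange, IH in blue and a symbol per chemistry. Ribosomal DNA contigs lie between 2.11 and 9.09, above every other class, and exonic reads of 1 nuclear gene between 0.743 and 1.06 under both handlings.

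Whether single genes responded to handling differently without s4U than with it was tested over all 18 libraries. The interaction of label and handling was called in 0 of 11541 genes (0%) with edgeR, and 898 had an unadjusted p below 0.05. DESeq2 called 3 genes in the same contrast: ENSG00000044574 (chromosome 9) and ENSG00000203814 (chromosome 1) with log2 differences of 1.02 and 1.08 between the unlabelled and the labelled response, and ENSG00000117450 (chromosome 1) with -1.17 (adjusted p = 0.044, 0.044 and 0.017). This fit takes the spread of the single unlabelled libraries from the labelled pairs, and a p that misses the threshold does not show that the responses were alike.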

How the data were processed

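RNA from the 6 unlabelled libraries and 12 labelled ones was compared from a table of counts deposited by the authors: reads per library, aligner, contig, gene, intron flag, T positions and T-to-C mismatches. The submitters' processing notes name cutadapt, HISAT, HISAT2, STAR, Picard, HTSeq and DESeq2, and the build GRCh38, without versions. The other values deposited by the authors, T-to-C and T numbers per read, are whole numbers per read group. HISAT-3N alignments (settings D, undefined in the sources used here) were the main input. A read counts as exonic or intronic as the table flags it. How overlapping genes were split is not given, beyond a mark for reads of more than 1 gene.

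Gene counts passed filterByExpr, were scaled by TMM and tested with edgeR 4.0.16 (quasi-likelihood, chemistry as a block, Benjamini-Hochberg at 0.05); SE is the log2 change over the root of F. The intron to exon ratio was tested with edgeR, with library and chemistry-specific ratio terms, where a gene averaged 20 or more reads of each kind. T numbers were tested with limma 3.58.1. DESeq2 1.42.0 and other settings were alternatives. On simulated data with 200 changed genes per test, a log2 change of 2 (or 6 T positions) was recovered in every changed gene. Between 4 and 15 unchanged genes were called per test. The changed genes were well covered and balanced between rises and falls, so the simulation did not cover genes with few reads or changes in most genes. Shares were tested by exact permutation within chemistry.

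Named genes are the 2 with the largest rise and the 2 with the largest fall at an adjusted p below 0.05, the same sign in all 3 chemistries and at least 100 reads per library on average. Gene groups by T number or intronic share used at least 300 labelled reads of the gene, and those by T-to-C rate 50 in each labelled IH library. Groups by level had no such minimum and held all genes tested. The members and lists were chosen with earlier results of these data known. The gene groups, the scaling to total reads, the separate scaling of the ratio, the T-number peak and the counts of genes in thinned reads were added after the data had been seen. Lists of genes by symbol and marker genes were not used, because identifiers are not paired with symbols here. A second deposited table, of rate constants, was not used.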

Additional observations from a re-analysis of the deposited data

Results flagged for a closer look

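The handling difference in the mitochondrial share was larger without s4U than with it: -1.62 points against -0.72 points, a gap of -0.89 points (exact permutation test over 729 arrangements, p = 0.014; adjusted over 11 measures, p = 0.15). The unlabelled IH libraries had the lowest mean, 2.07% (n = 3), and the labelled IH libraries 2.49% (n = 6). The unlabelled DO libraries had the highest, 3.69% (n = 3), and the labelled DO libraries 3.22% (n = 6). No sample could be checked as an outlier, because each unlabelled group has 3 libraries.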

How the results depend on the processing

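Of 151 refits of the 14 gene results named, 149 kept their direction and stayed called, although the sizes of low-count genes moved widely, as the report gives; the exceptions, ENSG00000206560 (1.56 with STAR) and ENSG00000205581 (10.5 without the TL pair), are given in the report. The 4 genes that passed the filter on counts through IH only, and ENSG00000199415, could not be refitted with at least 20 reads in each library. Exonic calls ranged from 7836 to 8444 with a pair left out, intronic calls from 5042 to 5927, ratio calls from 3368 to 4127, T-number calls from 1 to 189 and interaction calls stayed at 0. Calls fell to 3640 (exonic) and 658 (intronic) with at least 20 reads in each library, to 3864 (intronic) after thinning, and to 1399 (ratio) with at least 100 reads of each kind, where fewer genes were tested (148 of the 546 intronic calls shared with the strict filter changed sign), and to 1555 (ratio) with each kind scaled by its own factors. T-number calls were 139 with at least 200 reads and 27 with STAR. Over 18 libraries, 8715 exonic genes were called, and 8641 with a replicate block, which raised interaction calls from 0 to 3, as did DESeq2 (3). The replicate numbers gave no sign of pairing labelled libraries: deviations correlated by -0.0017 to 0.018 within chemistry. This does not settle whether the libraries were made in pairs.

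Shares and rates kept their direction with the other aligners and denominators, except one. Differences, IH minus DO, with HISAT2 were 22.3 (intronic share), -17.1 (ribosomal contigs), -2.83 (mitochondrial), -9.22 (no gene), 9.85 (mean T number), -0.43 (reads with a mismatch) and -0.36 (mismatches per 1000 T). With STAR they were 28.7, -12.3, -3.02, -2.18, 9.17 and -0.275 for the first 6; STAR left 16.7% of DO reads and 5.15% of IH reads without a unique place. Over reads of 1 gene they were 14.9, -16.1, -2.98 and 9.82 for the intronic, ribosomal and mitochondrial shares and the T number. Without the ribosomal contigs they were 26.8 (intronic), -3.60 (mitochondrial), 7.45 (T number), -0.38 (reads with a mismatch) and -0.28 (mismatches per 1000 T), and the share without a gene turned to 1.27; the cause of these shifts was not tested. With a pair left out, they ran from 16.3 to 16.8 (intronic), -30.2 to -25.5 (ribosomal), -1.72 to -1.41 (mitochondrial), -15.5 to -12.3 (no gene), 10.8 to 11.1 (T number), -1.70 to -0.91 (reads with a mismatch) and -1.76 to -0.80 (mismatches per 1000 T).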
